A study of Mus musculus with 15 samples.

Results

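Transcript levels of 39 protein-folding genes were compared in the mouse hippocampus: 21 genes that act in the endoplasmic reticulum (ER) and 18 genes that act in the cytosol or the mitochondria. The genes were taken as a fixed set of symbols, chosen with earlier results of these data known. They were matched to the rows of the count table through the gene identifiers of the GENCODE annotation. The ER and the cytosolic genes were kept apart. All 39 were found among the 55471 gene identifiers of the table, and all 39 were among the 16171 genes that passed the filter on low counts (more than 1 CPM, a count scaled to library size, in at least 3 libraries).

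RNA came from the whole hippocampus of female mice aged 3 months, with 3 libraries in each of 5 groups and 15 libraries in all. Batch 1 held the double mutant (DM, AppNL-G-F/NL-G-F together with Apoe4+/wt), the APP-TKI line (AppNL-G-F/NL-G-F) and wild-type mice (WT), and batch 2 held the ApoE4 line (ApoE4+/wt) and a separate group of WT mice. The DM and APP-TKI mice were homozygous for an App gene with knocked-in familial Alzheimer's disease mutations, whereas the DM and ApoE4 mice carried human APOE4 on a single allele and kept mouse Apoe on the other. WT mice were of the C57BL/6JInv strain, and DM mice came from a cross of the APP-TKI and ApoE4 lines. The labels call the libraries of a group replicates without naming the animals, so that p-values measure the spread between these libraries. Batch and genotype cannot be told apart between the batches, and each genotype was therefore set against the WT mice of its own batch.

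The ER imports, folds and glycosylates secreted and membrane proteins. When unfolded proteins build up there, the sensors IRE1 (gene *Ern1*), ATF6 and PERK start the unfolded protein response, in which spliced XBP1 and cleaved ATF6 switch on genes for chaperones, disulfide isomerases and the machinery that sends misfolded proteins to degradation. In the cytosol, heat shock factor 1 (*Hsf1*) drives a separate response whose targets are the inducible Hsp70, Hsp40, Hsp90 and small heat shock proteins. Neurons express the constitutive cytosolic chaperones at high levels and are known to induce the heat shock genes only weakly.

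Total counts lay between 32754717 and 44630808 per library. Markers of hippocampal neurons were detected in every library and summed to 6743 to 8307 CPM. Within batch 2, ApoE4 replicate 1 and WT replicate 3 stood apart by markers of the choroid plexus, which summed to 3227 CPM and 2753 CPM, against 267 to 338 CPM in the other 4 libraries. Markers of thalamus and striatum summed to 1469 CPM in ApoE4 replicate 3 and 824 CPM in WT replicate 3, against 329 to 494 CPM in the other batch 2 libraries. Within batch 1, the share of counts from long noncoding genes split the libraries of every genotype, though not evenly. It was 2.84% to 3.09% in 4 libraries (DM replicate 1, APP-TKI replicates 1 and 2, WT replicate 1) and 2.31% to 2.48% in the other 5.

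A known feature of the ER genes is the ER stress element in their promoters, CCAAT and CCACG held 9 bases apart, to which NF-Y and ATF6 bind. The RefSeq promoter table (GRCm38.p6, 250 bases before to 50 bases after each transcript start) held 30 of the 39 genes, 18 from the ER group and 12 from the cytosolic group. The element (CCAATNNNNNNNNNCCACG, read on both strands) was present in 8 of 18 ER promoters and 0 of 12 cytosolic promoters, against 0.119% of all 32851 promoters of the table. The 8 genes were *Hspa5*, *Dnajc3*, *Hsp90b1* (which had 2 copies), *Calr*, *Canx*, *Pdia6*, *Creld2* and *Syvn1*. The following sites are shown because the genes share the element while their log2 fold changes between ApoE4 and WT mice run from -0.04 (*Canx*) to 0.37 (*Creld2*). Each is written 5' to 3' on the strand of the gene, with the fixed bases of the element in capitals.
Hspa5 (chr2:34772005-34772063): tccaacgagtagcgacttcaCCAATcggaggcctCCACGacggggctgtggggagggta
Creld2 (chr15:88819500-88819558): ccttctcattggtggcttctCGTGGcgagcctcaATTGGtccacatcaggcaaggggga
Calr (chr8:84847055-84847113): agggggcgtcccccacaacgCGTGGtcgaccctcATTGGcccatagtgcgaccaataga
Syvn1 (chr19:6046512-6046570): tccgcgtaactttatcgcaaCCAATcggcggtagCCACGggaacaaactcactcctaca
Canx (chr11:50325780-50325838): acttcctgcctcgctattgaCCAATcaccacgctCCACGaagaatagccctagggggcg

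In *Creld2* and *Calr* the element lies on the strand opposite to the gene and so reads as CGTGG and ATTGG. The second form of the element (ATTGGNCCACG) was found in the promoters of *Dnajb11* and *Herpud1* and in 0.0365% of all promoters, and the XBP1 site TGACGTGG in none of the 30 genes and 0.676% of all promoters. Among the cytosolic genes, a heat shock element of 3 inverted units (GAANNTTCNNGAA or TTCNNGAANNTTC) was found in 4 of 12 promoters (*Hsph1*, *Chordc1*, *Hspd1* and *Hspe1*), in 0 of 18 ER promoters and in 0.603% of all promoters. *Hspa1a*, *Hspa1b*, *Dnajb1*, *Hspb1* and *Bag3* had promoters in the table without such a match. Only exact matches were counted for every element, so that a promoter without a match can still hold a looser form. The mitochondrial chaperonin genes *Hspd1* and *Hspe1* are transcribed away from each other from a shared promoter, so that their sites are the same bases. That site is shown on the strand of *Hspe1*, with 1 of its 2 overlapping elements in capitals, because *Hspe1* was the cytosolic gene with the smallest p-value between DM and APP-TKI mice.
Hspe1 (chr1:55088039-55088091): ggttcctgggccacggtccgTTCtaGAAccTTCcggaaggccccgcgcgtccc

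Levels were first set side by side per length, as RPKM, a read count scaled to exon length and library size, averaged over the 15 libraries. The cytosolic genes spanned the widest range. *Hsp90ab1* and *Hsp90aa1*, which encode the constitutive and the inducible form of cytosolic Hsp90, had mean levels of 520 and 308 RPKM, and *Hspa8*, the constitutive Hsp70, had 338 RPKM. These 3 genes were at percentiles 99.7 to 99.8 of the tested genes. The stress-inducible Hsp70 genes *Hspa1b* and *Hspa1a* were at 4.24 and 3.19 RPKM, and the small heat shock protein gene *Hspb1* was at 2.21 RPKM.

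In the ER group, the calcium-binding lectin chaperones came first, *Calr* (calreticulin) with 107 RPKM and *Canx* (calnexin) with 83.5 RPKM. They were followed by *Hsp90b1* (GRP94, the Hsp90 of the ER) with 59.8 RPKM, *Hspa5* (BiP, the Hsp70 of the ER) with 56.2 RPKM and *Pdia3* (a disulfide isomerase that works with both lectins) with 55.3 RPKM. The lowest was the stress sensor *Ern1*, with 1.79 RPKM. Adjacent genes of this order whose ranges over the libraries overlap, such as *Hsp90b1*, *Hspa5* and *Pdia3*, were not separated by their spread.

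The comparison of ApoE4 with WT mice in batch 2 asked what APOE4 does without App mutations. Of the 21 ER genes, 18 had a higher level in ApoE4 than in WT mice, with a median log2 fold change of 0.14 against -0.01 over all 16171 tested genes, of which 45.9% were higher. All 3 ApoE4 libraries were above all 3 WT libraries for 11 of the 21 ER genes, against 5.39% of all tested genes. An unadjusted p under 0.05 in edgeR's quasi-likelihood test was reached by 10 of the 21, all of them higher in ApoE4, against 3.23% of all tested genes. None of the 39 genes passed Benjamini-Hochberg adjustment at 0.1 in this test, where 0 of 16171 genes passed (0%) and 5.99% had an unadjusted p under 0.05. DESeq2 called 3 of the 39 at the same threshold (*Hspa5*, *Pdia4* and *Hyou1*, among 48 genes in all), and edgeR's robust likelihood ratio test called 2 (*Hspa5* and *Pdia4*, among 125 in all). The 39 genes were chosen with earlier results of these data known, so that counts over them are descriptions.

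**Figure D1:**
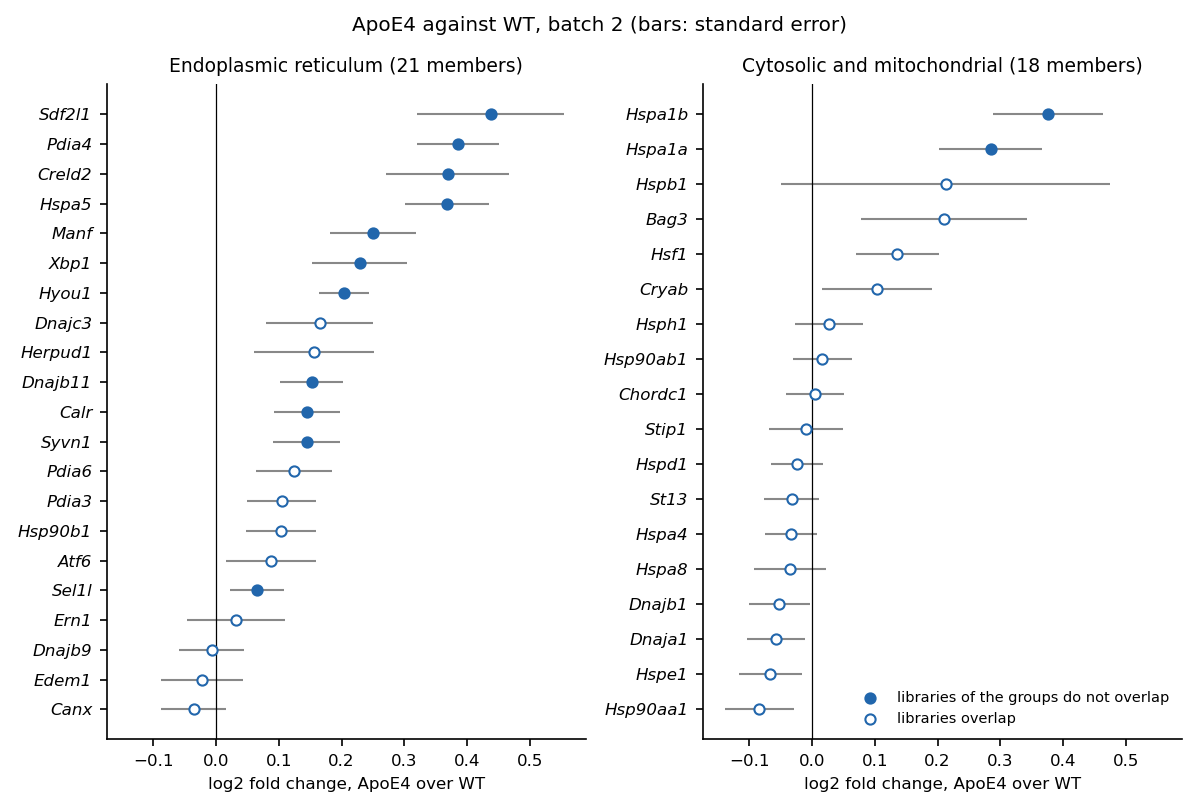
Log2 fold change of ApoE4 over WT mice (x axis, batch 2, 3 libraries each) for the 21 ER genes (left) and the 18 cytosolic and mitochondrial genes (right), with the standard error as bars. Filled points are genes whose ApoE4 libraries were all above the WT libraries, 11 on the left and 2 on the right; the ER genes run from -0.04 (*Canx*) to 0.44 (*Sdf2l1*).

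In the Hsp70 system of the ER, 5 of 7 genes had ApoE4 libraries above all WT libraries. *Hspa5*, the chaperone that also holds the stress sensors inactive, was at 329, 325 and 309.7 CPM in ApoE4 mice, against 228, 248 and 269.8 CPM in WT mice. Its lowest ApoE4 library was thus above its highest WT library, a 1.29-fold difference (log2 fold change 0.37, SE 0.07, adjusted p = 0.669 in edgeR's quasi-likelihood test, adjusted p = 0.000388 in DESeq2). *Hyou1* (GRP170, the nucleotide exchange factor of BiP) was at 114, 118 and 116 CPM in ApoE4 mice and 98.6, 101 and 103 CPM in WT mice. The libraries of each group lay close together here, and the log2 fold change was 0.20 (SE 0.04, adjusted p = 0.669 by quasi-likelihood and 0.0237 by DESeq2).

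*Sdf2l1*, a partner of the BiP cochaperone *Dnajb11*, showed the largest fold change of the 39 genes, at 10.7, 8.77 and 11.1 CPM in ApoE4 mice against 7.92, 7.01 and 7.65 CPM in WT mice (log2 fold change 0.44, SE 0.12). *Manf*, a secreted ER factor that protects neurons, was at 48.2, 44.8 and 44.0 CPM in ApoE4 mice against 36.0, 37.7 and 41.5 CPM in WT mice. *Dnajb11* differed less, with a log2 fold change of 0.15 (SE 0.05), and its groups did not overlap. *Dnajc3*, a further BiP cochaperone, had a log2 fold change of 0.17 (SE 0.08) with overlapping libraries, and *Dnajb9*, which binds to and restrains IRE1, had nearly equal levels (log2 fold change -0.01, SE 0.05).

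Among the disulfide isomerases and lectins, *Pdia4* (ERp72) had the smallest p-value of all 39 genes. It was at 52.1, 52.2 and 53.5 CPM in ApoE4 mice, against 37.0, 40.3 and 43.5 CPM in WT mice, with a log2 fold change of 0.39 (SE 0.06, unadjusted p = 0.000446 and adjusted p = 0.669 by quasi-likelihood, adjusted p = 0.00103 by DESeq2). *Creld2*, a small ER protein with isomerase activity, was at 17.0, 15.1 and 16.3 CPM in ApoE4 mice against 11.9, 11.5 and 14.1 CPM in WT mice. Both genes therefore had ApoE4 libraries above every WT library. *Calr* did so by a smaller margin (log2 fold change 0.14, SE 0.05), whereas *Pdia6*, *Pdia3* and *Hsp90b1* had overlapping libraries and log2 fold changes of 0.12, 0.11 and 0.10. *Canx*, the membrane-bound partner of *Calr*, did not share the pattern and was at 385, 377 and 364 CPM in ApoE4 mice against 366, 389 and 399 CPM in WT mice.

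Of the regulators, *Xbp1*, whose spliced product is the main transcription factor of the IRE1 branch, was at 77.1, 78.5 and 74.3 CPM in ApoE4 mice against 57.8, 67.6 and 70.6 CPM in WT mice. The groups did not overlap (log2 fold change 0.23, SE 0.08), but gene counts do not separate the spliced from the unspliced form. The sensors themselves differed less, with log2 fold changes of 0.09 (SE 0.07) for *Atf6* and 0.03 (SE 0.08) for *Ern1*. In the degradation machinery, the ubiquitin ligase gene *Syvn1* and its adaptor *Sel1l* had ApoE4 libraries above all WT libraries, with log2 fold changes of 0.14 (SE 0.05) and 0.07 (SE 0.04). *Herpud1*, which recruits the ligase complex, had a log2 fold change of 0.16 (SE 0.10), and *Edem1*, a lectin that routes misfolded glycoproteins to degradation, had -0.02 (SE 0.07).

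Whether the promoter element goes with the size of the difference was not tested. Its 8 carriers had a median log2 fold change of 0.14 and ranged from *Canx* to *Creld2*, 7 of 8 being higher in ApoE4 mice. The 10 other tested genes with the element had a median of 0.10, with 6 of 10 higher. *Pdia4* and *Sdf2l1*, at the top of the order, had promoters in the table without an exact match to either form of the element. *Hyou1* and *Manf*, whose groups were also separate, had no promoter in the table.

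The cytosolic genes were evenly split in the same comparison, 9 higher and 9 lower in ApoE4 mice, with a median log2 fold change of -0.0022. The exceptions were the inducible Hsp70 genes. *Hspa1b* was at 15.6, 16.4 and 17.5 CPM in ApoE4 mice against 13.8, 12.7 and 11.7 CPM in WT mice (log2 fold change 0.38, SE 0.09, unadjusted p = 0.0031, adjusted p = 0.761 by quasi-likelihood). *Hspa1a* was at 12.1, 11.7 and 13.0 CPM in ApoE4 mice against 10.6, 9.96 and 9.68 CPM in WT mice (log2 fold change 0.28, SE 0.08, adjusted p = 0.761 by quasi-likelihood). Both sets of libraries were separate, and these were the 2 of 18 cytosolic genes with an unadjusted p under 0.05. Over all tested genes, 5.39% had all ApoE4 libraries higher and 5.99% had an unadjusted p under 0.05. *Hspa1a* and *Hspa1b* lie next to each other on chromosome 17 (34969190-34972156 and 34956436-34959238, GRCm38) and have near-identical coding sequences, and *Hspa1a* shares 564 exonic bases with *Gm20481* on the other strand, so that the assignment of reads to each is uncertain.

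No other cytosolic gene had separate libraries or an unadjusted p under 0.05 by quasi-likelihood. *Hspa8* was at 1549, 1561 and 1440 CPM in ApoE4 mice against 1478, 1572 and 1611 CPM in WT mice (log2 fold change -0.03, SE 0.06). *Hsf1* was at 32.1, 30.8 and 31.6 CPM in ApoE4 mice against 28.7, 26.5 and 30.8 CPM in WT mice. Its log2 fold change was 0.14 (SE 0.07), and its libraries overlapped by a narrow margin. The Hsp40 genes *Dnajb1* and *Dnaja1*, *Hsp90aa1* and both chaperonin genes had log2 fold changes between -0.08 and -0.02, and the cochaperones *Stip1* (which links Hsp70 to Hsp90), *St13* and *Chordc1* between -0.03 and 0.005. *Bag3*, which directs Hsp70 clients to autophagy, and the small heat shock protein genes *Hspb1* and *Cryab* had log2 fold changes of 0.21 (SE 0.13), 0.21 (SE 0.26) and 0.10 (SE 0.09), all with overlapping libraries.

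Of 55 further ER folding and quality control genes, 30 were higher and 25 lower in ApoE4 mice, with a median log2 fold change of 0.02. Of these, 4 had an unadjusted p under 0.05 by quasi-likelihood, all higher (*Wfs1*, *Derl3*, *Dnajc1* and *Derl2*), and 7 had ApoE4 libraries above all WT libraries, against 3.23% and 5.39% of all tested genes. A further 3 had ApoE4 libraries below all WT libraries. Whether the 55 genes differed from the 21 ER genes was not tested. The 2 with the smallest p were *Wfs1*, an ER membrane protein of calcium balance, with a log2 fold change of 0.29 (SE 0.08), and *Derl3*, a channel component of ER-associated degradation, with 0.72 (SE 0.25). *Derl3* had few counts, 20 to 58 per library and a mean of 0.90 CPM, and *Wfs1* is also on the list of hippocampal neuron markers. Targets of ATF4, the transcription factor of the PERK branch, were 8 higher and 16 lower of 24 tested, the smallest p being those of *Gpt2* (log2 fold change 0.28, SE 0.05) and *Cebpb* (-0.42, SE 0.09). Of 51 further cytosolic and mitochondrial chaperones 15 were higher and 36 lower. The ApoE4 libraries were above all WT libraries for 2 of the 51 and below them for 6. The smallest p were those of *Dnaja4* (0.16, SE 0.04) and *Cdc37l1* (0.13, SE 0.04), both higher in ApoE4 mice. Over all tested genes, 45.9% were higher in this comparison.

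Several library measures moved with this comparison. Without the choroid-rich libraries (ApoE4 replicate 1 and WT replicate 3) the median log2 fold change of the ER genes was 0.15, with 9 of 21 at an unadjusted p under 0.05, and the counts for the ER genes were 7 to 13 when any 1 library was left out. WT replicate 3, the choroid-rich WT library, had the highest WT level for 15 of the 21 ER genes, against 39.1% of all tested genes. ApoE4 replicate 1, the choroid-rich ApoE4 library, had the highest ApoE4 level for 11 of the 21, against 32.6% of all tested genes. Without WT replicate 3 the ER median was 0.19, and 5 rather than 2 cytosolic genes had an unadjusted p under 0.05. Glucocorticoid response genes summed to 1357 to 1439 CPM in ApoE4 mice and 1060 to 1275 CPM in WT mice, with 17 of 18 genes higher in ApoE4 and 11 of these at an unadjusted p under 0.05, led by *Zbtb16* (log2 fold change 0.52, SE 0.08) and *Fkbp5* (0.41, SE 0.08). Immediate early genes were lower for 18 of 24 in ApoE4 mice, 7 of them at an unadjusted p under 0.05, led by *Fos* (-0.81, SE 0.12) and *Btg2* (-0.28, SE 0.08), although their sums overlapped (1313 to 1404 CPM in ApoE4 mice, 1219 to 1506 CPM in WT mice). Over all tested genes, 5.99% had an unadjusted p under 0.05 by quasi-likelihood, and 3.23% had one with a higher level in ApoE4 mice.

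Markers of other cell types moved as well, in a comparison where 5.99% of all tested genes had an unadjusted p under 0.05 by quasi-likelihood and 45.9% were higher. Smooth muscle and pericyte genes were lower for 13 of 15 in ApoE4 mice, 4 of them at an unadjusted p under 0.05 (smallest for *Myh11*, log2 fold change -0.83, SE 0.16, and *Vtn*, -0.38, SE 0.13), and their sums were separate, at 243.9 to 282.1 CPM in ApoE4 mice and 295 to 304.5 CPM in WT mice. Fibroblast genes were lower for 16 of 16 (median -0.28, none at an unadjusted p under 0.05, smallest for *Slc6a13* and *Slc47a1*), with overlapping sums of 150.2 to 194.4 CPM in ApoE4 mice and 162.8 to 252.8 CPM in WT mice. Ependymal genes were higher for 17 of 17 (median 0.58, 1 at an unadjusted p under 0.05, smallest for *Spef2* and *Pifo*), with overlapping sums of 130.8 to 206.5 CPM in ApoE4 mice and 86.9 to 154.4 CPM in WT mice. The part of these in the ER result was not tested. In RNA from whole tissue, a change in the number of cells of a type and a change in RNA per cell cannot be told apart.

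In batch 1, the double mutant was compared with WT mice to ask what both alterations do together, and the folding genes differed little. None of the 39 passed adjustment by quasi-likelihood (2 of 16171 genes did, 0.0124%, and 11 with a block for the replicate number). DESeq2 and the robust likelihood ratio test called none of the 39 either. Of the ER genes, 16 of 21 were higher in DM mice, with a median log2 fold change of 0.05 against 0.01 over all genes, of which 54.9% were higher. An unadjusted p under 0.05 was reached by 0 of 21, against 4.55% of all tested genes, and no ER gene had separate libraries, against 10.4% of all tested genes. The ER median was -0.009 without WT replicate 1 or without DM replicate 3. The ER genes with the smallest p were *Canx*, *Pdia3* and *Sdf2l1*, with log2 fold changes of 0.11 (SE 0.08), 0.12 (SE 0.09) and 0.17 (SE 0.14).

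*Hspa5* was at 175, 209.8 and 255 CPM in DM mice, against 178, 203 and 238 CPM in WT mice, and *Xbp1* was at 50.8, 57.4 and 62.6 CPM in DM mice against 51.8, 54.9 and 63.4 CPM in WT mice. Libraries with the same replicate number had nearly the same level in both genotypes, and levels differed more between the replicates of a genotype than between the genotypes. The log2 fold changes of *Hspa5* (0.05, SE 0.14) and *Xbp1* (0.01, SE 0.09) were below their standard errors.

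The cytosolic genes were again evenly split, with 9 of 18 higher in DM mice. The smallest p was that of *Hspa1a*, at 7.78, 7.12 and 7.70 CPM in DM mice against 9.70, 8.69 and 10.5 CPM in WT mice, where all DM libraries were below all WT libraries (log2 fold change -0.35, SE 0.15, unadjusted p = 0.0325, adjusted p = 1 by quasi-likelihood). Among the 18 genes it was the only one with an unadjusted p under 0.05, which 4.55% of all tested genes had. It no longer had one without WT replicate 1, WT replicate 3 or DM replicate 2. *Hspa1b* was at 7.72, 9.67 and 10.9 CPM in DM mice against 11.1, 10.5 and 12.3 CPM in WT mice, with overlapping libraries. *Chordc1*, an Hsp90 cochaperone, also had separate libraries, but by a narrow margin, with 89.2 to 90.2 CPM in DM mice and 90.5 to 104 CPM in WT mice. Separate libraries were thus seen for 2 of 18 cytosolic genes, against 10.4% of all tested genes. *Hspa8* and *Hsf1* had log2 fold changes of 0.07 (SE 0.08) and -0.14 (SE 0.12).

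The inducible Hsp70 genes had a like level in APP-TKI mice, which carry the App mutations alone. *Hspa1a* was at 9.26, 8.09 and 6.06 CPM in APP-TKI mice and *Hspa1b* at 9.41, 10.4 and 8.50 CPM, giving log2 fold changes over WT mice of -0.30 (SE 0.15) and -0.26 (SE 0.13), with separate libraries for *Hspa1b*. The comparisons of DM and of APP-TKI with WT share the WT libraries, and the similar values are therefore not independent. None of the 39 genes passed adjustment between APP-TKI and WT mice by quasi-likelihood, DESeq2 or the robust likelihood ratio test (1 of 16171 genes did by quasi-likelihood, 0.00618%), and 0 of 39 had an unadjusted p under 0.05, against 3.56% of all tested genes.

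Of the ER genes, 5 were higher and 16 lower in APP-TKI mice, with a median log2 fold change of -0.04 against 0.01 over all genes, of which 55.5% were higher. Without WT replicate 3 this median was 0.006. *Creld2* had the smallest p among them, at 10.5, 10.7 and 9.75 CPM in APP-TKI mice against 11.2, 12.2 and 11.5 CPM in WT mice (log2 fold change -0.17, SE 0.09), and it was the only ER gene with separate libraries, against 8.27% of all tested genes. *Herpud1* and *Edem1* had log2 fold changes of -0.10 (SE 0.09) and 0.09 (SE 0.07). *Hspa5* was at 175, 186 and 232 CPM in APP-TKI mice, against 178, 203 and 238 CPM in WT mice, a near-complete overlap. *Hspe1*, the cochaperonin of mitochondrial Hsp60, was at 59.1, 61.0 and 63.5 CPM in APP-TKI mice against 62.5, 70.6 and 68.9 CPM in WT mice (log2 fold change -0.14, SE 0.07).

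Targets of ATF4, a list chosen with earlier results of these data known, were mostly lower in both batch 1 mutants. In DM mice, 19 of 24 were lower than in WT mice and 8 of these had an unadjusted p under 0.05 by quasi-likelihood, against 4.55% of all tested genes. The same counts held in APP-TKI mice against the same WT libraries, where the share over all tested genes was 3.56%. *Atf4* itself had log2 fold changes of -0.42 (SE 0.07, adjusted p = 0.146 by quasi-likelihood) in DM and -0.37 (SE 0.07, adjusted p = 0.324 by quasi-likelihood) in APP-TKI mice. The next smallest p were those of *Mthfd2* in DM mice (-0.57, SE 0.13) and *Chac1* in APP-TKI mice (-0.74, SE 0.15). Of the 55 further ER folding genes, 41 were higher and 14 lower in DM mice and 24 higher and 31 lower in APP-TKI mice, with medians of 0.04 and -0.01. Over all tested genes, 54.9% and 55.5% were higher. In DM mice 4 of the 55 had an unadjusted p under 0.05 by quasi-likelihood and 7 had separate libraries, all higher. The shares over all tested genes were 4.55% and 10.4%. In APP-TKI mice 0 of the 55 had such a p. Of the 55, those with the smallest p were *Serpinh1* and *Derl3* in DM mice (0.27 and 0.68) and *Derl3* and *Sec61b* in APP-TKI mice (0.505 and -0.16). The values of *Derl3* rest on the low counts given above.

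Markers of vessels and of the ventricle lining also differed in batch 1. Over all tested genes, an unadjusted p under 0.05 by quasi-likelihood was reached by 4.55% between DM and WT mice and 3.78% between DM and APP-TKI mice. The shares of genes higher in DM mice were 54.9% and 50.4%. Endothelial genes summed to 192.3 to 238.8 CPM in DM mice, 149.2 to 169.2 CPM in APP-TKI mice and 154.3 to 171.6 CPM in WT mice, so that the DM libraries were separate from both. They were higher in DM mice for 19 of 20 genes against WT mice (11 at an unadjusted p under 0.05, smallest for *Podxl* and *Pecam1*) and for 20 of 20 against APP-TKI mice (12 at an unadjusted p under 0.05, median 0.42, smallest for *Ptprb* and *Pecam1*). Ependymal genes were higher in DM mice for 17 of 17 against WT mice (14 at an unadjusted p under 0.05, median 1.15, smallest for *Dnah11* and *Hydin*) and for 16 of 17 against APP-TKI mice (5 at an unadjusted p under 0.05, median 0.68, smallest for *Dnali1* and *Cfap126*). Their sums were 81 to 116.8 CPM in DM mice, 64.2 to 90.5 CPM in APP-TKI mice and 57.3 to 68.5 CPM in WT mice.

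Fibroblast genes were higher in DM mice for 14 of 16 against WT mice (9 at an unadjusted p under 0.05, smallest for *Ogn* and *Crabp2*) and 13 of 16 against APP-TKI mice (6, smallest for *Slc6a13* and *Crabp2*). Smooth muscle and pericyte genes were higher in DM mice for 13 of 15 against WT mice (7, smallest for *Acta2* and *Tpm2*) and 11 of 15 against APP-TKI mice (3, smallest for *Acta2* and *Myh11*). Between APP-TKI and WT mice, ependymal genes were higher for 17 of 17 (1 at an unadjusted p under 0.05, smallest for *Dnah11* and *Foxj1*), choroid plexus genes for 14 of 14 (2, smallest for *Slc4a5* and *Cldn2*) and endothelial genes for 5 of 20 (0, smallest for *Ptprb* and *Tek*). Over all tested genes, the share at an unadjusted p under 0.05 by quasi-likelihood was 4.55% (DM over WT), 3.78% (DM over APP-TKI) and 3.56% (APP-TKI over WT). The part of these cell types in the levels of the folding genes was not tested.

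**Figure D2:**
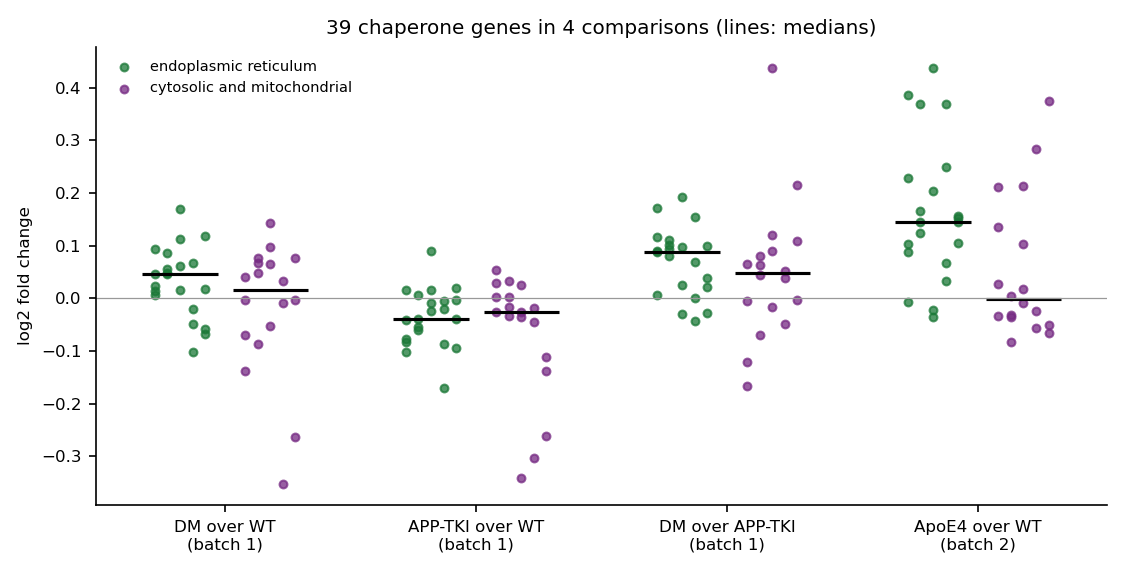
Log2 fold change (y axis) of each of the 21 ER genes (green) and 18 cytosolic and mitochondrial genes (purple) in 4 comparisons, with the median as a line. The ER medians were 0.05 (DM over WT), -0.04 (APP-TKI over WT), 0.09 (DM over APP-TKI) and 0.14 (ApoE4 over WT); the 2 lowest purple points under DM over WT are *Hspa1a* and *Hspa1b*, which are the 2 highest under ApoE4 over WT.

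DM was compared with APP-TKI mice to ask what APOE4 adds on App mutations. None of 16171 genes passed adjustment by quasi-likelihood (0%), and 611 (3.78%) had an unadjusted p under 0.05, among them 1 of the 39. DESeq2 called 16 genes and the robust likelihood ratio test 53, none of them among the 39. Of the ER genes, 17 were higher and 4 lower in DM mice, with a median log2 fold change of 0.09 against 0.00 over all genes, of which 50.4% were higher, and none had an unadjusted p under 0.05 or separate libraries (7.93% of all tested genes had). In the same comparison the endothelial and ependymal markers given above were higher for 20 of 20 and 16 of 17 genes. The 3 with the smallest p were *Dnajb9*, *Manf* and *Sdf2l1*, with log2 fold changes of 0.17 (SE 0.10), 0.15 (SE 0.11) and 0.19 (SE 0.14). *Hspa5* and *Xbp1* had 0.11 (SE 0.14) and 0.09 (SE 0.09). Without APP-TKI replicate 3, 4 ER and 3 cytosolic genes had an unadjusted p under 0.05, and without DM replicate 1, 1 ER gene did. Without DM replicate 3 the ER median was 0.02.

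The gene with an unadjusted p under 0.05 was *Hspe1*. It was at 67.6, 70.2 and 75.4 CPM in DM mice, against 59.1, 61.0 and 63.5 CPM in APP-TKI mice, with no overlap (log2 fold change 0.21, SE 0.07, unadjusted p = 0.00768, adjusted p = 0.987 by quasi-likelihood). Its chaperonin partner *Hspd1*, which shares the promoter shown above and 112 exonic bases with it, had a log2 fold change of 0.05 (SE 0.08) and overlapping libraries. *Hspb1* also had separate libraries, at 1.35, 1.44 and 1.55 CPM in DM mice against 0.908, 1.26 and 1.03 CPM in APP-TKI mice, and *Stip1* had a log2 fold change of 0.09 (SE 0.06). *Hspa1a*, *Hspa1b*, *Hspa8* and *Hsf1* had log2 fold changes of -0.05, -0.0027, 0.06 and -0.17, each with overlapping libraries.

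**Figure D3:**
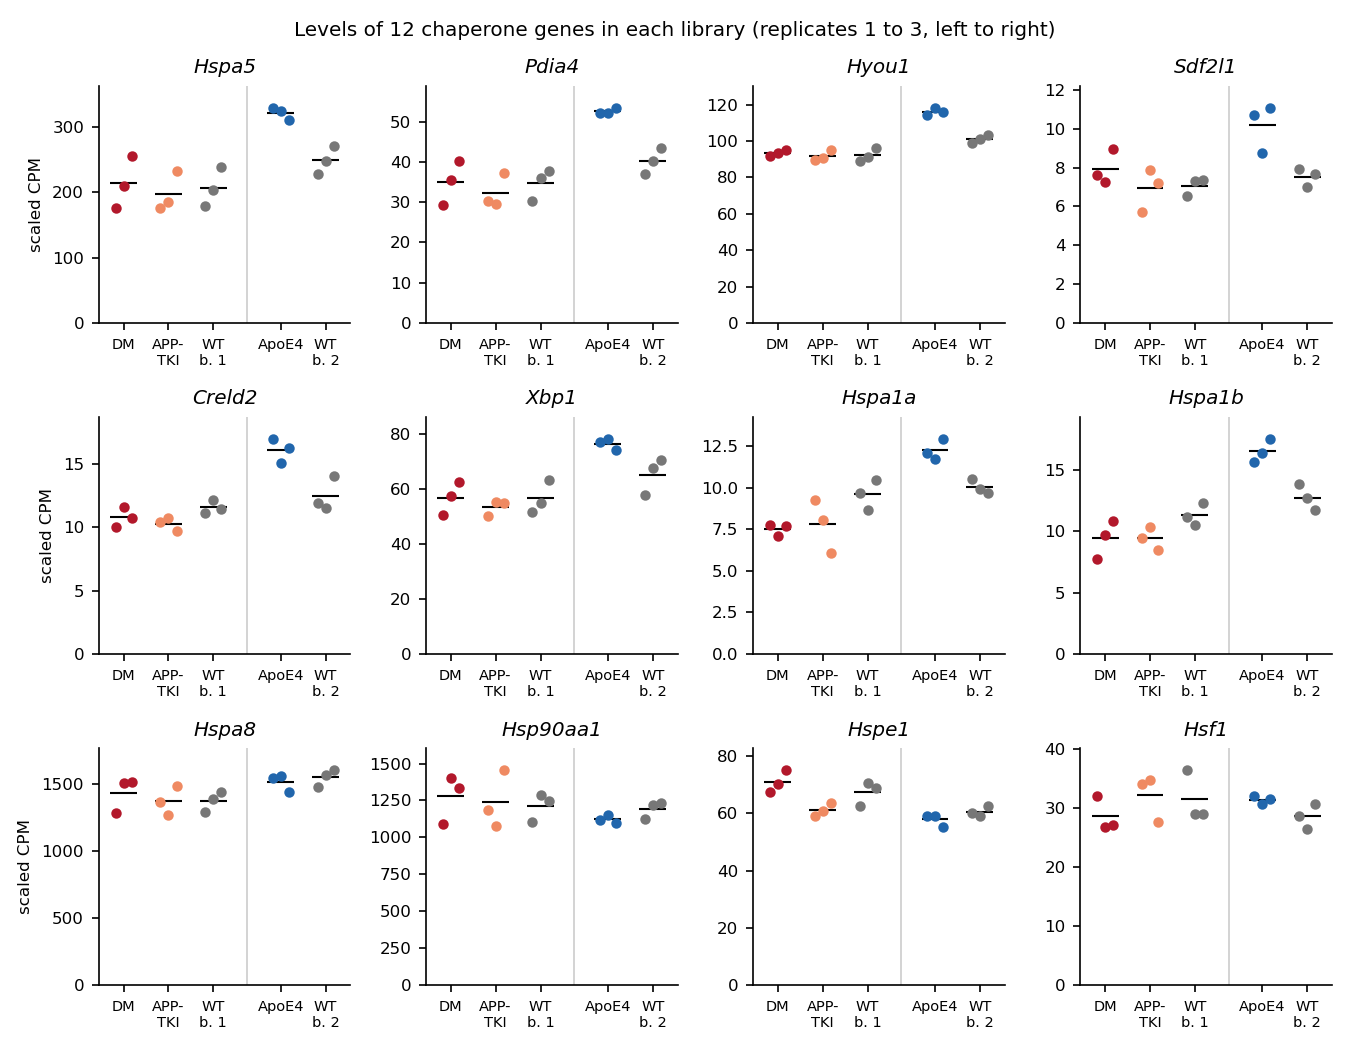
Level in each library (y axis, CPM scaled by the upper quartile; x axis, DM, APP-TKI and WT of batch 1, then ApoE4 and WT of batch 2) of 12 of the genes, with replicates 1 to 3 from left to right and the group mean as a line. ApoE4 points lie above all WT points of batch 2 for *Hspa5*, *Pdia4*, *Hyou1*, *Sdf2l1*, *Creld2*, *Xbp1*, *Hspa1a* and *Hspa1b*; for *Hspa5*, DM replicates run over 175, 209.8 and 255 CPM, which overlaps APP-TKI and WT.

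The levels behind the other small differences of batch 1 were as follows. *Canx* was at 393, 433 and 431 CPM in DM mice, 388, 357 and 431 CPM in APP-TKI mice and 359, 409 and 395 CPM in WT mice. *Pdia3* was at 169.9, 185 and 187 CPM in DM mice, 162, 152 and 192 CPM in APP-TKI mice and 155, 168 and 176 CPM in WT mice. In both genes the libraries of every pair of genotypes overlapped. *Sdf2l1* was at 7.62, 7.26 and 8.94 CPM in DM mice, 5.72, 7.88 and 7.22 CPM in APP-TKI mice and 6.53, 7.31 and 7.34 CPM in WT mice. *Dnajb9* was at 39.5, 46.3 and 43.7 CPM in DM mice, 36.5, 34.2 and 44.3 CPM in APP-TKI mice and 37.4, 41.7 and 42.3 CPM in WT mice. *Manf* was at 31.3, 35.2 and 38.7 CPM in DM mice, 29.2, 31.2 and 34.1 CPM in APP-TKI mice and 29.1, 32.8 and 38.5 CPM in WT mice. For all 3 of these BiP-linked genes, the highest APP-TKI library was above the lowest DM library.

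Of the degradation genes, *Edem1* was at 24.8, 24.7 and 23.6 CPM in DM mice, 26.1, 24.6 and 24 CPM in APP-TKI mice and 23.7, 24.8 and 21.6 CPM in WT mice. *Herpud1* was at 31.2, 40.4 and 37.1 CPM in DM mice, 34.1, 36.5 and 35.4 CPM in APP-TKI mice and 35.0, 37.2 and 40.9 CPM in WT mice. *Syvn1* was at 36.2, 34.5 and 32.7 CPM in DM mice, 36.7, 36.6 and 32.2 CPM in APP-TKI mice and 38.6, 35.7 and 34.1 CPM in WT mice. The 3 genotypes overlapped in each. *Xbp1* in APP-TKI mice was at 50.2, 55.3 and 55.1 CPM, inside the DM and WT ranges but for its lowest library.

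On the cytosolic side, *Hspa8* was at 1288, 1513 and 1515 CPM in DM mice, 1368, 1273 and 1488 CPM in APP-TKI mice and 1290, 1391 and 1440 CPM in WT mice. *Hsf1* was at 32.1, 26.8 and 27.2 CPM in DM mice, 34.2, 34.8 and 27.7 CPM in APP-TKI mice and 36.6, 29.0 and 29.1 CPM in WT mice. *Stip1* was at 136.5, 150.0 and 150.3 CPM in DM mice and 134, 133 and 143 CPM in APP-TKI mice. For *Hspa8* the library with the lowest level in each genotype was also among the 4 with the higher long noncoding share, and for *Hsf1* that held of the libraries with the highest level.

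Whether the effect of APOE4 on the folding genes differed with the App mutations was tested as the difference between DM minus APP-TKI in batch 1 and ApoE4 minus WT in batch 2. None of 16171 genes passed adjustment by quasi-likelihood (0%), with 6.85% at an unadjusted p under 0.05, and DESeq2 and the robust likelihood ratio test called none of the 39 among 26 and 121 genes. The difference was below 0 for 19 of 21 ER genes (47.4% of all tested genes), with a median of -0.08. The log2 fold change was thus lower in the batch 1 pair, which carries App mutations, than in the batch 2 pair. Each pair came from its own batch, so that App mutations and batch cannot be told apart in this difference. *Hyou1* and *Creld2* had an unadjusted p under 0.05, with differences of -0.18 (SE 0.06, unadjusted p = 0.0136, adjusted p = 0.699 by quasi-likelihood) and -0.30 (SE 0.13, unadjusted p = 0.0357, adjusted p = 0.719 by quasi-likelihood). *Syvn1*, at 40.6, 38.5 and 42.5 CPM in ApoE4 mice against 36.9, 35.9 and 37.3 CPM in WT mice of batch 2, followed with -0.17 (SE 0.10). For *Hspa5* and *Pdia4* the differences of -0.26 and -0.27 had standard errors of 0.19 and 0.16. For *Xbp1* it was -0.14 (SE 0.13).

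In the cytosolic group, 11 of 18 differences were above 0, with a median of 0.09. The 2 with an unadjusted p under 0.05 lay in opposite directions. *Hspe1*, at 59.2, 59.1 and 55.4 CPM in ApoE4 mice against 60.1, 59.0 and 62.7 CPM in WT mice of batch 2, had 0.28 (SE 0.08, unadjusted p = 0.00428, adjusted p = 0.634 by quasi-likelihood), and *Hspa1b* had -0.38 (SE 0.17, unadjusted p = 0.04, adjusted p = 0.722 by quasi-likelihood). *Hsf1* and *Hspa1a* had -0.30 (SE 0.15) and -0.33 (SE 0.18), and *Hspa8* 0.10 (SE 0.10). The counts at an unadjusted p under 0.05 rested on single libraries: without APP-TKI replicate 3 they were 5 ER and 7 cytosolic genes, and without DM replicate 1, APP-TKI replicate 1 or 2, WT replicate 1 or 2 of batch 2, or ApoE4 replicate 1 or 3, the ER count was 1. The cytosolic count was 1 to 7 when any 1 library was left out.

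The spread within groups was near or below that of all genes. The standard deviation of log2 CPM around the group mean had a median of 0.11 over the ER genes and 0.09 over the cytosolic genes, against 0.13 over all tested genes. In the ER group it was 0.13 in batch 1 and 0.08 in batch 2, against 0.13 and 0.11 over all tested genes. Over all 5 groups, *Hspa5* had the largest spread of the ER genes, 0.19, at percentile 66.5 of all tested genes. *Sel1l* (0.03) and *Hyou1* (0.04) were at percentiles 0.1 and 0.9. By batch, *Hspa5* was at 0.23 in batch 1 and 0.09 in batch 2, where *Sdf2l1* and *Herpud1* had larger values (0.14 each).

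In batch 1 the order of the libraries within a genotype followed the split by long noncoding share for many of these genes. Among the 3 DM libraries, replicate 1 was the lowest for 16 of 21 ER and 15 of 18 cytosolic genes, against 37.8% of all tested genes. Among the WT libraries of batch 1, replicate 1 was the lowest for 16 of 21 ER and 13 of 18 cytosolic genes, against 40.4% of all tested genes. In APP-TKI mice, replicate 3 was the highest for 14 of 21 ER and 13 of 18 cytosolic genes, against 34.2% of all tested genes. DM replicate 1, WT replicate 1 and APP-TKI replicates 1 and 2 are the 4 libraries with the higher long noncoding share.

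All 4 of these libraries were below all 5 others for 9 of 21 ER genes (42.9%) and 9 of 18 cytosolic genes (50%), against 8.6% of all tested genes. The ER genes were *Hspa5*, *Dnajb9*, *Dnajb11*, *Dnajc3*, *Manf*, *Hsp90b1*, *Canx*, *Pdia4* and *Pdia6*. The cytosolic genes were *Hspa8*, *Hspa4*, *Dnaja1*, *Dnajb1*, *Hsp90aa1*, *Hsp90ab1*, *Stip1*, *St13* and *Hspd1*. The constitutive and the inducible form of cytosolic Hsp90 were thus both among them. The opposite order held for *Ern1*, *Syvn1* and *Hsf1*, and for 13.8% of all tested genes.

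*Hspa5* was at 175 to 186 CPM in the 4 libraries and 203 to 255 CPM in the other 5, and *Pdia4* at 29.3 to 30.4 CPM and 35.6 to 40.1 CPM. *Hsp90aa1* was at 1074 to 1186 CPM in the 4 libraries and 1246 to 1459 CPM in the other 5, and *Hsf1* at 32.1 to 36.6 CPM and 26.8 to 29.1 CPM. The inducible Hsp70 genes *Hspa1a* and *Hspa1b* overlapped between both sets. Whether this split came from tissue, RNA or library preparation was not tested.

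**Figure D4:**
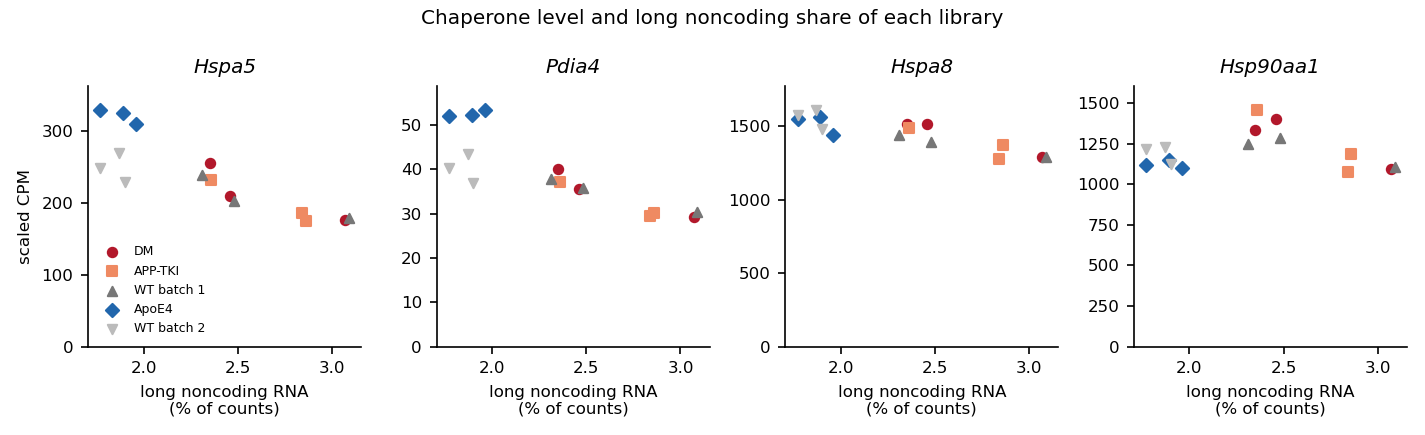
Level (y axis, scaled CPM) of *Hspa5*, *Pdia4*, *Hspa8* and *Hsp90aa1* against the share of counts from long noncoding genes (x axis, %) in the 15 libraries, with a marker for each group. In batch 1 (circles, squares, upright triangles), the 4 libraries at 2.84% to 3.09% lie below the 5 at 2.31% to 2.48%, whichever their genotype; in batch 2 the share is 1.77% to 1.96%, and ApoE4 lies above WT for *Hspa5* and *Pdia4*.

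The batch 1 comparisons were therefore repeated without these 4 libraries, a choice made after the data had been seen, which leaves 2 DM, 1 APP-TKI and 2 WT libraries. The ER median between DM and APP-TKI mice was then 0.01, and none of the 39 genes passed adjustment between DM and APP-TKI or between DM and WT mice. Between APP-TKI and WT mice, 2 genes passed adjustment in edgeR's quasi-likelihood test, *Hspa1a* with a log2 fold change of -0.66 (SE 0.17, adjusted p = 0.0671) and *Hsp90aa1* with 0.21 (SE 0.05, adjusted p = 0.0666). The same setting called 342 of all 16171 genes, against 1 with all libraries. With a single APP-TKI library, its variation is assumed to be that of the other groups. In batch 2 the long noncoding share was 1.77% to 1.96% in ApoE4 mice and 1.77% to 1.90% in WT mice, so that the groups overlapped.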

How the data were processed

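Bulk RNA of the whole hippocampus was measured in 15 libraries made with a directional polyA kit, 3 in each of 5 groups, with the groups taken from the labels. The deposited values are raw counts of reads per gene. The authors trimmed reads with Trimmomatic 0.39, aligned them with STAR 2.7.1a to the mouse genome (GENCODE) with human APOE added, and counted them with HTSeq 0.11.2. For HTSeq, the strand setting was not stated in the paper's methods or the labels. Later steps of the authors in R 4.0.2 and edgeR did not enter these values.

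The re-analysis used Python 3.11.15 with matplotlib 3.10.9 and, in R 4.3.3, the packages DESeq2 1.42.0, edgeR 4.0.16 and limma 3.58.1. Of 55471 gene identifiers, 55230 matched GENCODE M21 (GRCm38), which gave symbols, classes and exon lengths. Genes with a CPM over 1 in at least 3 libraries were kept (16171), libraries were scaled by the upper quartile, and edgeR's quasi-likelihood test was fitted to the 9 libraries of batch 1, to the 6 of batch 2, and to all 15 for the difference of the APOE4 effects. P-values were adjusted over all tested genes by the Benjamini-Hochberg method, with a threshold of 0.1. CPM in the text is scaled CPM, and its log2 value was taken with a prior count of 1. RPKM used the exon bases of the annotation. A fold change is the first-named group over the second.

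The genes and the comparison lists (other ER and cytosolic folding genes, ATF4 targets, glucocorticoid and immediate early genes, cell type markers) were chosen with earlier results of these data known, and counts over them are descriptions. Values per library are given for the 3 ER and 3 cytosolic genes with the smallest p in each comparison and, throughout, for *Hspa5*, *Xbp1*, *Hspa1a*, *Hspa1b*, *Hspa8* and *Hsf1*, with fold changes for the rest. Of the other lists, the 2 genes with the smallest p are named where the direction of a list in a comparison is described. Counts of overlapping genes and near-identical copies are uncertain, which touches *Hspa1a* and *Hspa1b*, *Cryab* (with Hspb2), *Hsp90b1*, *Dnaja1*, and *Hspd1* with *Hspe1*. Promoter sequences are from RefSeq (GRCm38.p6), matched by symbol. Protein sequences were not analysed here.

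Whether replicate numbers pair the libraries was checked by correlating the deviations of libraries from their group means over all tested genes. Libraries with the same number had r of 0.446, 0.194 and 0.3 between DM and WT, all above 0.1, so the number was also fitted as a block there. The labels do not say what the numbers stand for. In the other comparisons some pairs were below 0. The scripts were tested on simulated counts.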

Additional observations from a re-analysis of the deposited data

How the results depend on the processing

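The choices varied were a threshold of 0.05, TMM scaling, DESeq2, edgeR's robust likelihood ratio test, no filter, all 15 libraries in a single fit, the replicate block and leaving out each library. Leaving out the 4 libraries of batch 1 with the most long noncoding RNA, or the 2 of batch 2 with the most choroid plexus RNA, was chosen after seeing the data. The number of the 39 genes that passed adjustment between ApoE4 and WT mice was 0, against 3 with DESeq2, 2 with the robust likelihood ratio test and 1 without a filter (*Pdia4*, adjusted p = 0.085 by quasi-likelihood, where its adjusted p over all alternatives ran from 0.000373 by the robust test to 0.997 without ApoE4 replicate 3). *Pdia4*, *Hspa5* and *Hyou1* kept log2 fold changes of 0.33 to 0.44, 0.31 to 0.43 and 0.19 to 0.22 when any 1 library was left out. Without the 4 long noncoding-rich libraries, 2 genes passed adjustment between APP-TKI and WT mice, the ER median between DM and APP-TKI mice was 0.00783, and the cytosolic median of the difference of APOE4 effects was 0.00447. With any 1 library left out, the cytosolic median ranged over -0.0884 to -0.00466 between APP-TKI and WT mice, 0.00298 to 0.121 between DM and APP-TKI mice and 0.0266 to 0.142 in the difference of APOE4 effects, where the ER median was -0.152 to -0.051.

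Several log2 fold changes near 0 changed sign. Between DM and WT mice, *Xbp1* was at -0.0105 with TMM scaling, -0.0148 with DESeq2 and -0.00774 without a filter, and at -0.0674 to 0.0937 with any 1 library left out, where *Hspa5* was at -0.0997 to 0.172. Between APP-TKI and WT mice, *Hspa8* was at -0.00869 with TMM scaling, -0.0102 with DESeq2 and -0.0185 without a filter. With any 1 library left out, *Hspa8* was at -0.0576 to 0.0558, *Hspa5* at -0.193 to 0.0542, *Xbp1* at -0.145 to 0.00476 and *Hsf1* at -0.0298 to 0.147. Without the 4 libraries, *Hspa5* was at 0.0756 and *Hsf1* at -0.0699. Between DM and APP-TKI mice, *Hspa1b* was at 0.011 with the robust test and 0.00738 without a filter, and without the 4 libraries *Hspa1a* was at 0.291 and *Hspa1b* at 0.271. With any 1 library left out, *Hspa1a* was at -0.203 to 0.0925, *Hspa1b* at -0.117 to 0.123 and *Hspa5* at -0.0385 to 0.242. Between ApoE4 and WT mice, *Hspa8* was at -0.0693 to 0.0012 with any 1 library left out. In the difference of APOE4 effects, *Hspa1a* was at 0.00691 without the 4 libraries. The cause of these moves was not tested.

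The number of all genes that passed adjustment depended far more on the tool. For DM over WT, APP-TKI over WT, DM over APP-TKI, ApoE4 over WT and the difference of APOE4 effects it was 2, 1, 0, 0 and 0 by quasi-likelihood, 50, 25, 16, 48 and 26 by DESeq2, 136, 50, 53, 125 and 121 by the robust test, and 175, 83, 103, 9 and 393 without a filter. In a single fit of all 15 libraries the first 4 were 1, 3, 1 and 0, and without the 4 libraries the batch 1 counts were 131, 342 and 163. With any 1 library left out, the counts ranged over 1 to 29, 0 to 3, 0 to 1 and 0 to 1.

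With the replicate number as a block, 11, 9, 1 and 0 genes passed adjustment in the 4 comparisons and 0 of the 39 in each. Pairing by number changed no call among the 39 genes. Between ApoE4 and WT mice 9 of 21 ER genes had an unadjusted p under 0.05 with the block. *Hspb1*, at 0.908 to 1.58 CPM in batch 1 and 2.54 to 4.92 CPM in batch 2, had the largest spread within groups of the 39 genes, and the part of counting depth in it was not tested.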

Other observations

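The inducible Hsp70 genes lay on opposite sides of WT in the 2 batches, lower in DM and APP-TKI mice and higher in ApoE4 mice, without passing adjustment by quasi-likelihood in either when all libraries were used. Without the 4 long noncoding-rich libraries of batch 1, *Hspa1a* passed it between APP-TKI and WT mice, as given above. The WT libraries of the 2 batches overlapped in both genes, at 9.68 to 10.6 CPM (*Hspa1a*) and 11.7 to 13.8 CPM (*Hspa1b*) in batch 2 and 8.69 to 10.5 CPM and 10.5 to 12.3 CPM in batch 1. *Hspa5* was at 228 to 269.8 CPM in WT mice of batch 2 and 178 to 238 CPM in WT mice of batch 1, and *Hspb1* at 2.54 to 4.92 CPM and 0.961 to 1.58 CPM. These levels stand side by side without a test, since each group of WT mice belongs to a single batch.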
